A study of Mus musculus with 27 samples.

Results

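The 8 LIF receptor and Stat3 pathway genes described here were followed from mouse embryonic fibroblasts (MEFs) through partially reprogrammed pre-iPSCs to induced pluripotent stem cells (iPSCs). They were taken by gene symbol from the deposited expression tables, and all 8 names were found among 20156 genes. They are the ligand Lif, the receptor chains Lifr and Il6st, the kinases Jak1 and Jak2, the transcription factor Stat3, the feedback inhibitor Socs3 and the target kinase gene Pim1. Their RNA level was read as FPKM, which scales fragments to the length of the transcript and to the mapped fragments of the library, in 6 RNA-seq libraries, and their chromatin as reads of histone H3, H3K4me3, H3K27me3 and H3K9me3 within 1000 bp of the transcription start given in the tables.

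LIF, a cytokine of the interleukin-6 family, binds the LIF receptor, which pairs with the shared signalling chain gp130 encoded by Il6st. Janus kinases bound to both chains then phosphorylate STAT3, which enters the nucleus and activates genes, among them Socs3, whose product binds gp130 and the kinases and shuts the signal off. In mouse pluripotent cells LIF in the medium keeps self-renewal going through STAT3. H3K4me3 is a histone mark of active promoters, H3K27me3 the mark left by Polycomb proteins at silent genes, and H3K9me3 a mark of heterochromatin.

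The MEFs came from E13.5 embryos that carried an Oct4-GFP transgenic allele and a Rosa26 allele, both hemizygous, from males on a CBA/CaJ and C57BL/6J background crossed to 129Sv/Jae females. They were kept for no more than 3 passages in a serum medium whose listed recipe has no LIF. Pre-iPSCs and iPSCs were made from such MEFs by retroviruses that carried c-Myc, Klf4, Oct4 and Sox2, the 4 Yamanaka factors, and grown for 6 passages on a layer of mitomycin-inactivated MEFs in medium with LIF, for which the labels give 1000 units/ml in iPSCs. Both reprogrammed lines therefore differed from the MEFs in cell type, in added LIF, in feeder cells and in the viral factors at once, and these cannot be told apart. Each cell type had 2 libraries for RNA, H3, H3K4me3 and H3K27me3 and 1 for H3K9me3, and the libraries of a cell type are named replicate 1 and 2. The study describes them as biological replicates and used stable pre-iPSC clones with their matching iPSCs, but the labels do not tie a clone to a library. The MEF chromatin was digested with another amount of micrococcal nuclease and for another time than the chromatin of pre-iPSCs and iPSCs.

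The 8 fibroblast marker genes summed to 4450 and 4278 FPKM in the MEF libraries, to 304 and 97 FPKM in pre-iPSCs and to 207 and 243 FPKM in iPSCs, where feeder cells may add RNA. The 8 pluripotency markers summed to at most 0.904 FPKM in MEFs, to 632 and 3524 FPKM in pre-iPSCs and to 2342 and 2197 FPKM in iPSCs. Of these sums Pou5f1, the gene of the viral factor Oct4, made up 378 and 3184 FPKM in pre-iPSCs and 586 and 397 FPKM in iPSCs. Its viral and endogenous transcripts are not told apart by FPKM. A mean of 1 FPKM or more was reached by 4 of the 8 markers in pre-iPSCs and by 8 in iPSCs. Nanog was listed at 0 or 0.519 FPKM in the pre-iPSC libraries. The H3 libraries pre-iPSC 1 and iPSC 1 stood apart, with 2.61% and 1.74% of their unique reads in promoter windows against 0.898% to 1.01% in the other 4. For H3K4me3 this share was 4.91% and 3.89% in MEFs and 3.17% to 3.55% in pre-iPSCs and iPSCs. What part that difference had in the H3K4me3 changes of windows with few reads was not tested. Reads in called nucleosomes summed to 67362868 to 108211816 per H3 library and to 12007350 to 15222040 per library of the 3 marks. The deposited expression tables hold FPKM and no read counts, so no counting interval is given for RNA.

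By expression, the kinase gene Jak1 fell and the inhibitor gene Socs3 rose in both reprogrammed lines relative to MEFs. Lifr rose in pre-iPSCs, and in iPSCs Jak2 fell and Pim1 rose. Genes were tested with limma on log2(FPKM + 1), and calls needed a change of 2-fold or more and an adjusted p below 0.05. From MEFs to pre-iPSCs 2 of the 8 genes were called higher (Lifr, Socs3), where 7.39% of all 12401 tested genes were, and 1 lower (Jak1), where 9% were. From MEFs to iPSCs 2 genes were called higher (Socs3, Pim1) against 10.3% of all tested genes, and 2 lower (Jak1, Jak2) against 15.5%. The median log2 change of the 8 genes was 0.06 in the first comparison, where that of all tested genes was -0.04, and -0.57 in the second, where that of all tested genes was -0.14. Both comparisons use the same MEF libraries. Without the filter on low values 0 of the 3 calls in pre-iPSCs and 1 of the 4 in iPSCs (Jak1) passed. Between pre-iPSCs and iPSCs limma called 0 of the 8 genes, where 3.91% of all tested genes were higher and 4.71% lower, and 4 of the 8 had an unadjusted p below 0.05 (Jak2, Stat3, Lifr and Pim1), as had 21.6% of all tested genes. In bulk RNA a smaller number of cells that express a gene and less RNA per cell cannot be told apart.

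**Figure D1:**
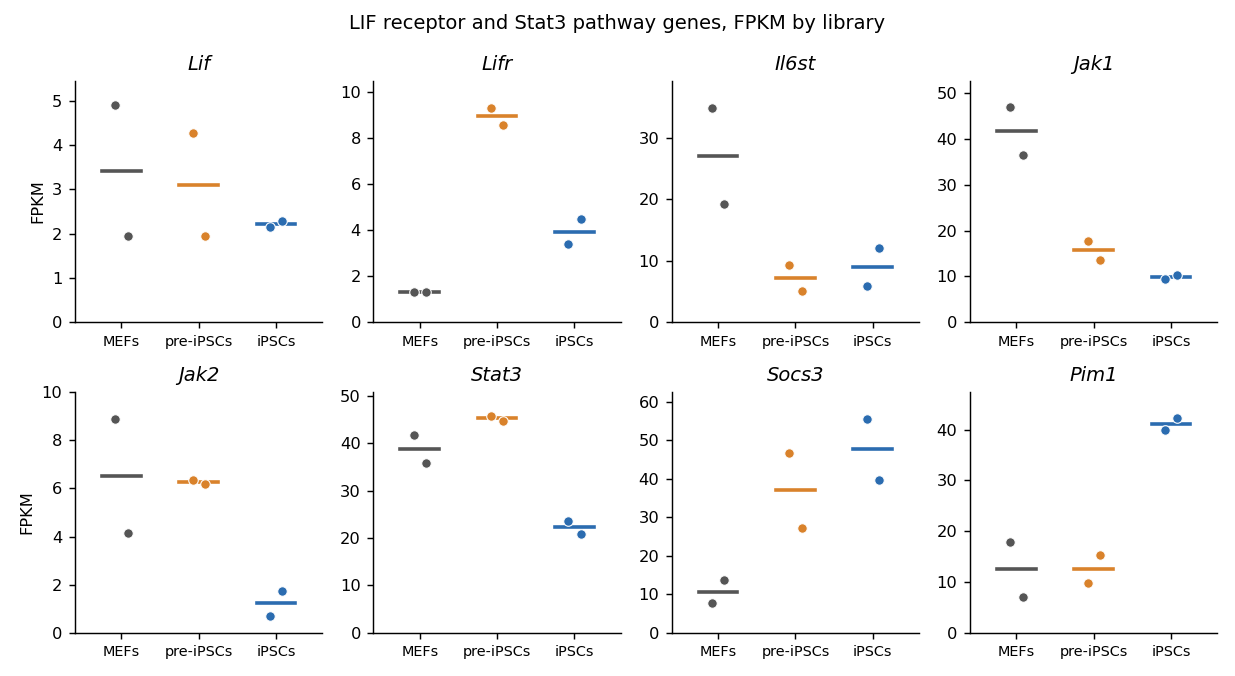
FPKM of the 8 genes in each of the 6 RNA-seq libraries, with 1 panel per gene, cell types along the horizontal axis and 1 point per library. Lifr was highest in pre-iPSCs (9.31 and 8.58 FPKM), Pim1 in iPSCs (39.9 and 42.2 FPKM) and Jak1 in MEFs (46.9 and 36.5 FPKM).

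Lif encodes the ligand, and its gene lies on chromosome 11 (chr11:4157571-4172517 of mm9, plus strand). It was listed at 4.90 and 1.95 FPKM in the MEF libraries, at 4.27 and 1.94 FPKM in the pre-iPSC libraries and at 2.15 and 2.28 FPKM in the iPSC libraries. The 3 cell types overlapped, and within MEFs and pre-iPSCs replicate 1 was above replicate 2 by 2.52 and 2.20 times. The limma log2 change was -0.08 (SE 0.41, adjusted p = 0.927) from MEFs to pre-iPSCs and -0.38 (SE 0.41, adjusted p = 0.534) from MEFs to iPSCs.

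At the Lif start of the tables, H3K4me3 was higher in iPSCs than in MEFs. The 2000 bp window held 14 and 9 H3K4me3 reads in MEFs, 21 and 20 reads in pre-iPSCs and 25 and 27 reads in iPSCs. Every pre-iPSC and iPSC library was above both MEF libraries, and the counts stayed below the median of all promoters (25 to 36 reads per library) except in iPSC replicate 2. The log2 change from MEFs to iPSCs was 1.47 (2.77-fold, adjusted p = 0.00758, edgeR quasi-likelihood test), and from MEFs to pre-iPSCs 1.14 (2.21-fold, adjusted p = 0.0901), which did not pass. Without iPSC replicate 2 the first value was 1.32 (adjusted p = 0.065), and DESeq2 gave an adjusted p of 0.177.

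The GENCODE annotation of the same build has another Lif start 9527 bp downstream, within the gene, and the H3K4me3 reads lay mainly there. Its window held 52 and 62 reads in MEFs, 38 and 53 reads in pre-iPSCs and 42 and 43 reads in iPSCs, which is more than at the start of the tables in every library. There the log2 change from MEFs to iPSCs was -0.13 (adjusted p = 0.769, edgeR quasi-likelihood test), so the rise at the start of the tables was not seen at the start with more signal. This window was chosen after the data were seen. The 250 bases before each start are shown because they differ in CG dinucleotides, which are in capitals. The first is chr11:4157321-4157570 and the second chr11:4166848-4167097, both on the plus strand of mm9.
Lif, start of the tables: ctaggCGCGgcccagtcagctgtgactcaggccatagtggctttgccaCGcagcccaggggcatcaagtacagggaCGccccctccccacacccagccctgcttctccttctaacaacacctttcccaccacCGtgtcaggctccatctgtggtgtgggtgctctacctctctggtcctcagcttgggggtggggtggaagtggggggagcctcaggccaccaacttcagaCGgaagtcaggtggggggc
Lif, downstream start: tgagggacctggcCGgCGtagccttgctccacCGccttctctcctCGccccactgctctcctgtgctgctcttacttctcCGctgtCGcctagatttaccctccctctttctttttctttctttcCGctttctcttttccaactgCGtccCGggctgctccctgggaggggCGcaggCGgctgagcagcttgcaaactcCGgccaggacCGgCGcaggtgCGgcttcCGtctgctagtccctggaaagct
The first stretch held 6 CG dinucleotides, more than 34.8% of the starts of all 20156 genes, and the second 16, more than 63.1%. The median over all starts was 11.

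Lifr, the ligand-binding receptor chain (chr15:7090542-7147489, plus strand), rose from MEFs to pre-iPSCs. It stood at 1.30 and 1.29 FPKM in MEFs, 9.31 and 8.58 FPKM in pre-iPSCs and 3.39 and 4.49 FPKM in iPSCs. The 3 cell types did not overlap, with pre-iPSCs highest, iPSCs between and MEFs lowest. The log2 change from MEFs to pre-iPSCs was 2.11 (SE 0.36, adjusted p = 0.00937, limma), which is 4.32-fold on the scale of FPKM + 1 and less than the ratio of the FPKM themselves. The call was lost without pre-iPSC replicate 1 (1.98, adjusted p = 0.0866) and without pre-iPSC replicate 2 (2.24, adjusted p = 0.0562), but not without either MEF or iPSC library. From MEFs to iPSCs the log2 change was 1.10 (SE 0.36, adjusted p = 0.0645), and from pre-iPSCs to iPSCs it was -1.02 (SE 0.36, adjusted p = 0.155). Neither passed, although the former did with a pseudocount of 0.1 (1.52, adjusted p = 0.0496) and with quantile normalization (1.14, adjusted p = 0.0439). In MEFs Lifr was the lowest of the 8 genes, above 48.8% of all genes, and in pre-iPSCs it was above 71.4%.

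At the Lifr start of the tables H3K4me3 was higher and H3K27me3 lower in iPSCs than in MEFs. For H3K4me3 there were 8 and 6 reads in MEFs, 13 and 18 reads in pre-iPSCs and 21 and 19 reads in iPSCs, all below the medians of all promoters. For H3K27me3 there were 16 and 15 reads in MEFs, 13 and 8 reads in pre-iPSCs and 5 and 6 reads in iPSCs. Neither mark overlapped between MEFs and iPSCs. The log2 change from MEFs to iPSCs was 1.80 for H3K4me3 (3.47-fold, adjusted p = 0.00601, edgeR quasi-likelihood test). For H3K27me3 it was -1.49 (2.81-fold lower, adjusted p = 0.0319, edgeR quasi-likelihood test). From MEFs to pre-iPSCs neither passed, with a log2 change of 1.45 for H3K4me3 (adjusted p = 0.0691) and -0.52 for H3K27me3 (adjusted p = 0.504). The H3K27me3 call rests on few reads, and only in MEFs, where they were most, did both libraries have as many as testing needed. It was lost without MEF replicate 1 (adjusted p = 0.164), iPSC replicate 1 (0.194) or iPSC replicate 2 (0.0747), with calls of at least 2 reads only (0.222) and with DESeq2 (0.535), and DESeq2 gave 0.166 for H3K4me3.

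A GENCODE start of Lifr lies 10983 bp upstream, outside the gene of the tables, and carried more H3K4me3 in every library. Its window held 48 and 44 reads in MEFs, 49 and 48 reads in pre-iPSCs and 49 and 28 reads in iPSCs. The log2 change from MEFs to iPSCs was 0.04 (adjusted p = 0.939, edgeR quasi-likelihood test), and from MEFs to pre-iPSCs, where the RNA rose, it was 0.39 (adjusted p = 0.384). H3K27me3 at this start had 10 and 13 reads in MEFs, 10 reads and 1 read in pre-iPSCs and 4 reads each in iPSCs, with a log2 change from MEFs to iPSCs of -1.51 (adjusted p = 0.102). This window too was chosen after the data were seen. The 250 bases before each start are shown with CG in capitals, for chr15:7090292-7090541 and chr15:7079309-7079558, both on the plus strand of mm9.
Lifr, start of the tables: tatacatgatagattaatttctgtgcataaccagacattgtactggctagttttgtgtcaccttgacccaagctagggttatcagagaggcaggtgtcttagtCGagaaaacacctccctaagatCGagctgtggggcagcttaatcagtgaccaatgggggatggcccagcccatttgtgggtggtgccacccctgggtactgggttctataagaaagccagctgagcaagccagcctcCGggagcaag
Lifr, upstream start: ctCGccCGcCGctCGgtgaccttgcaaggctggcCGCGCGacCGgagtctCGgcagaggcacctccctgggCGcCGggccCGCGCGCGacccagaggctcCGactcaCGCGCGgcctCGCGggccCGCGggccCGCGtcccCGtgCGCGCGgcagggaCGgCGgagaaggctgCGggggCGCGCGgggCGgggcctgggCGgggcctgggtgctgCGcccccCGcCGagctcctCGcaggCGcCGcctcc
The start of the tables held 3 CG dinucleotides, more than 21.2% of all starts, and the upstream start 43, more than 98.9%. A GENCODE start 13811 bp downstream of the start of the tables held 10 and 13 H3K4me3 reads in MEFs, 12 and 8 reads in pre-iPSCs and 20 and 21 reads in iPSCs.

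**Figure D2:**
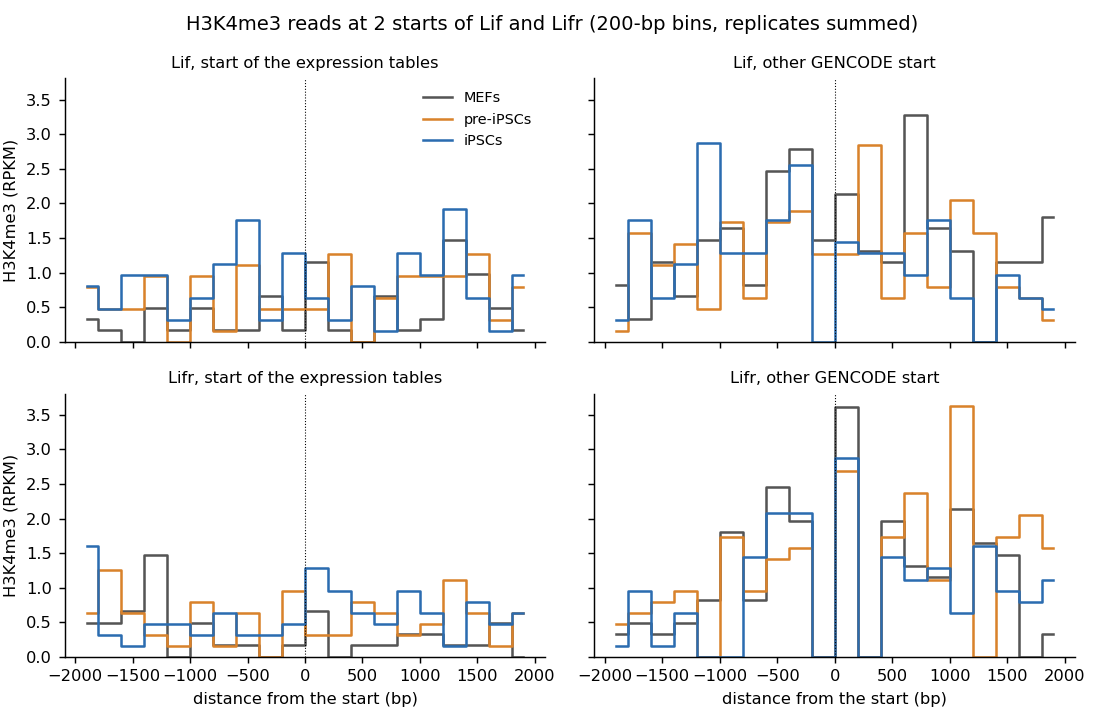
H3K4me3 in RPKM (vertical axis) in bins of 200 bp by distance from the start in bp (horizontal axis), for the start of the tables and the GENCODE start with more reads of Lif and Lifr, with 1 line per cell type and replicates summed. The lines are low at both starts of the tables, where single libraries had 6 to 27 reads in 2000 bp, and higher at the other starts, where they had 28 to 62.

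Il6st (chr13:113254278-113297068, plus strand) encodes gp130, a chain shared by receptors of the family. The tables list it at 34.9 and 19.3 FPKM in MEFs, 9.38 and 5.02 FPKM in pre-iPSCs and 5.96 and 12.1 FPKM in iPSCs. Both MEF libraries were above the other 4, while pre-iPSCs and iPSCs overlapped. The log2 change was -1.77 (SE 0.50, adjusted p = 0.0518, limma) from MEFs to pre-iPSCs and -1.50 (SE 0.50, adjusted p = 0.0643) from MEFs to iPSCs, and neither passed. Without MEF replicate 2 both were called, at -2.21 (adjusted p = 0.00417) and -1.94 (adjusted p = 0.00878). The first was also called without iPSC replicate 1 (adjusted p = 0.0393) or iPSC replicate 2 (0.0405), and the second without iPSC replicate 2 (-2.36, adjusted p = 0.0447). With all libraries kept, the first was called without the replicate block (adjusted p = 0.0428), with a pseudocount of 0.1 (0.0484) and over genes averaging at least 2 FPKM (0.0441), so it lies at the threshold. Il6st RNA stood above Lifr RNA in MEFs, at 27.1 ± 11.0 FPKM (SD, n = 2) against 1.30 ± 0.0094 FPKM. In pre-iPSCs the 2 genes overlapped, at 7.20 ± 3.08 and 8.95 ± 0.51 FPKM. In iPSCs Il6st was again above Lifr without overlap, at 9.01 ± 4.32 against 3.94 ± 0.776 FPKM. These values are RNA and do not give the amounts of the receptor proteins.

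Jak1 (chr4:100824579-100937887, minus strand), a kinase bound to gp130, fell in both lines. It was listed at 46.9 and 36.5 FPKM in MEFs, 17.8 and 13.55 FPKM in pre-iPSCs and 9.51 and 10.2 FPKM in iPSCs. The 3 cell types did not overlap. The log2 change was -1.36 (SE 0.34, 2.56-fold, adjusted p = 0.0361, limma) from MEFs to pre-iPSCs and -1.97 (SE 0.34, 3.91-fold, adjusted p = 0.00712) from MEFs to iPSCs. The step from pre-iPSCs to iPSCs, -0.61 (SE 0.34, adjusted p = 0.372), did not pass. The first call was lost without MEF replicate 1 (adjusted p = 0.057), pre-iPSC replicate 1 (0.251), pre-iPSC replicate 2 (0.437), iPSC replicate 1 (0.0584) or iPSC replicate 2 (0.059), and with quantile normalization (0.0597). The second was lost only without iPSC replicate 1 (-1.74, adjusted p = 0.0732) among the 6 fits that left out a library. Summed fibroblast markers fell over the same comparisons, and their part in this result was not tested.

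Jak2 (chr19:29326318-29387570, plus strand), the other receptor-bound kinase of the 8, was lowest in iPSCs. It stood at 8.87 and 4.13 FPKM in MEFs, 6.35 and 6.19 FPKM in pre-iPSCs and 0.717 and 1.73 FPKM in iPSCs. MEFs and pre-iPSCs overlapped and both iPSC libraries were below all others. The log2 change from MEFs to iPSCs was -1.72 (SE 0.46, 3.29-fold, adjusted p = 0.0333, limma), which was lost without MEF replicate 1 (-1.08, adjusted p = 0.152), iPSC replicate 1 (-1.14, 0.224) or iPSC replicate 2 (-2.29, 0.0689). From pre-iPSCs to iPSCs the change was of like size, -1.75 (SE 0.46), but did not pass (adjusted p = 0.0658). It passed without MEF replicate 1 (0.00384) and without MEF replicate 2 (0.00422), with quantile normalization (0.045) and without the replicate block (0.0454).

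Stat3 (chr11:100748124-100800825, minus strand), the transcription factor of the pathway, had the smallest ratio of highest to lowest library of the 8, at 2.21. By the limma changes between cell types, Lif varied less than Stat3. The tables list it at 41.7 and 35.8 FPKM in MEFs, 45.9 and 44.8 FPKM in pre-iPSCs and 23.7 and 20.8 FPKM in iPSCs. Both iPSC libraries were below the other 4. The log2 change was 0.22 (SE 0.33, adjusted p = 0.709, limma) from MEFs to pre-iPSCs, -0.996 (SE 0.33, adjusted p = 0.125) from pre-iPSCs to iPSCs and -0.77 (SE 0.33, adjusted p = 0.128) from MEFs to iPSCs. None passed. Stat3 RNA stood above 86.5% to 92.6% of all genes in the 3 cell types. These values are RNA and say nothing of the phosphorylated protein.

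Socs3 (chr11:117827401-117830680, minus strand), the feedback inhibitor, rose in both lines. It was listed at 7.83 and 13.6 FPKM in MEFs, 46.7 and 27.3 FPKM in pre-iPSCs and 55.6 and 39.8 FPKM in iPSCs. Both MEF libraries were below the other 4, and pre-iPSCs overlapped iPSCs. The log2 change was 1.69 (SE 0.44, 3.23-fold, adjusted p = 0.0392, limma) from MEFs to pre-iPSCs and 2.08 (SE 0.44, 4.23-fold, adjusted p = 0.0138) from MEFs to iPSCs. From pre-iPSCs to iPSCs it was 0.39 (SE 0.44, adjusted p = 0.701). The first call was lost without MEF replicate 1 (1.02, adjusted p = 0.0977), pre-iPSC replicate 1 (1.25, 0.394), pre-iPSC replicate 2 (2.13, 0.0858), iPSC replicate 1 (0.0927) or iPSC replicate 2 (0.0934). The second was lost without iPSC replicate 1 (1.85, 0.132) or iPSC replicate 2 (2.31, 0.0886).

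Of the 8 genes, Socs3 was the only one with the STAT motif TTCNNNGAA, searched on both strands, in the 250 bases before its start in the tables. The motif reads the same on both strands. It was found before 1338 of 20156 starts (6.64%), and the stricter TTCCNGGAA before 199 (0.987%) and before none of the 8 genes. The stretch, chr11:117830681-117830930 on the minus strand of mm9, is shown because it holds that match, which is in capitals and begins 154 bases before the start.
Socs3, start of the tables: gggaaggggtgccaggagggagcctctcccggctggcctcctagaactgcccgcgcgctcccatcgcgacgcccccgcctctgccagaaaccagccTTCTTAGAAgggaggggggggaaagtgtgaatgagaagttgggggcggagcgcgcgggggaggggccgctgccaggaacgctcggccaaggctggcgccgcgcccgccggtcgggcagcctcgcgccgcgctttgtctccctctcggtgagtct
A match of letters is a description of the sequence, and binding of STAT3 was not measured. Socs3 had 50 and 40 H3K4me3 reads at its start in MEFs, 42 and 34 reads in pre-iPSCs and 47 and 41 reads in iPSCs, which overlapped while its RNA rose.

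Pim1 (chr17:29627990-29632404, plus strand), a serine/threonine kinase gene known as a STAT3 target, was highest in iPSCs. Its levels were 17.9 and 7.13 FPKM in MEFs, 9.77 and 15.3 FPKM in pre-iPSCs and 39.9 and 42.2 FPKM in iPSCs. MEFs and pre-iPSCs overlapped and both iPSC libraries were above all others. The log2 change from MEFs to iPSCs was 1.76 (SE 0.48, 3.39-fold, adjusted p = 0.0335, limma), which was lost without MEF replicate 2 (0.98, adjusted p = 0.119), iPSC replicate 1 (1.96, 0.152) or iPSC replicate 2 (1.57, 0.213). From pre-iPSCs to iPSCs it was 1.67 (SE 0.48, adjusted p = 0.0804), which passed without MEF replicate 1 (0.000978), without MEF replicate 2 (0.000783) and with quantile normalization (0.0481). From MEFs to pre-iPSCs, where Socs3 rose, the Pim1 change was 0.09 (SE 0.48, adjusted p = 0.932), and whether the changes of these genes differ was not tested.

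**Figure D3:**
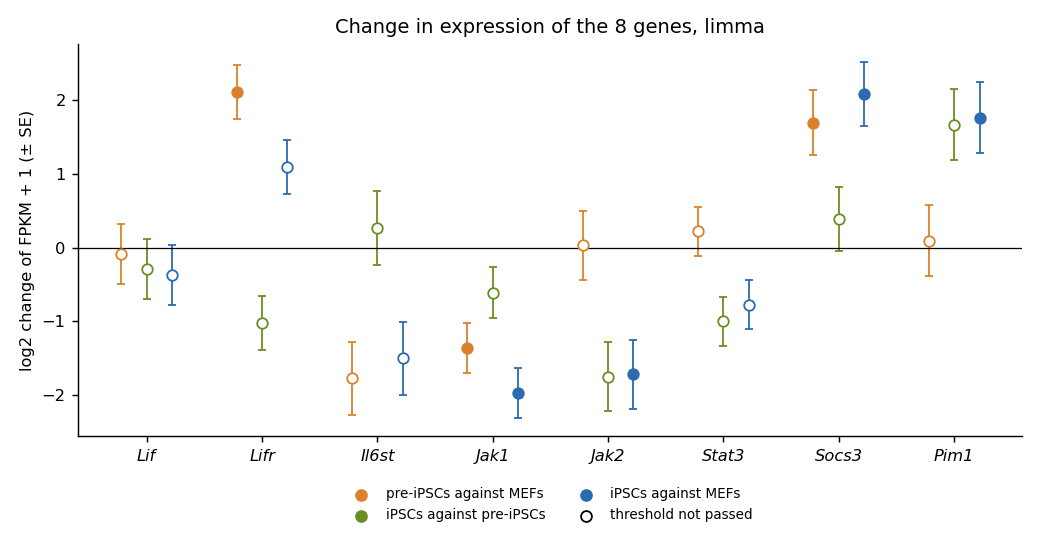
Log2 change of FPKM + 1 (vertical axis) of each of the 8 genes in the 3 comparisons, with bars of 1 SE from limma and filled points where the threshold was passed. Filled points lie above 0 for Lifr (2.11) and Socs3 (1.69) and below 0 for Jak1 (-1.36) in pre-iPSCs against MEFs, and in iPSCs against MEFs at 2.08 for Socs3, 1.76 for Pim1, -1.97 for Jak1 and -1.72 for Jak2.

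Ordered by FPKM, Jak1 and Stat3 led in MEFs, Stat3 and Socs3 in pre-iPSCs, and Socs3 and Pim1 in iPSCs, and in each case the leading pair overlapped between libraries. The inhibitor Socs3 overlapped Pim1 and Jak2 in MEFs, at 10.7 ± 4.10, 12.5 ± 7.64 and 6.50 ± 3.35 FPKM (SD, n = 2), and stood above Jak1 and Pim1 in pre-iPSCs without overlap. At the lower end, Lifr was below all others in MEFs, Lif in pre-iPSCs and Jak2 in iPSCs, each without overlap with its neighbour. The position of Lifr in the order thus moved from the eighth in MEFs to the fifth in pre-iPSCs, where it overlapped Il6st.

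H3K4me3 at the 8 starts of the tables was called in 1 comparison. From MEFs to iPSCs 2 of the 8 promoters were called higher (Lif, Lifr), where 9.79% of 17644 tested promoters were, and 0 lower, where 4.15% were. From MEFs to pre-iPSCs edgeR called 0, where 3.02% of all promoters were called higher and 0.856% lower, and DESeq2 called 0 of the 8 and 31 promoters in all. An unadjusted p below 0.05 was found for 2 of the 8 (Lif, Lifr) and for 19.8% of all promoters. Between pre-iPSCs and iPSCs edgeR called 0, where 0.0227% of all promoters were called higher and 0.0113% lower, and DESeq2 called 0 of the 8 and 0 in all. There 1 of the 8 had an unadjusted p below 0.05, as had 8.94% of all promoters. It was Pim1, with 53 and 53 reads in MEFs, 43 and 34 reads in pre-iPSCs and 79 and 43 reads in iPSCs, so that iPSC replicate 2 lay within the range of the other cell types (log2 change 0.64, adjusted p = 0.403). Without iPSC replicate 2 Pim1 was called from MEFs to iPSCs (0.78, adjusted p = 0.0493). In a window of 500 bp either side 0 of the 8 promoters were called, with an adjusted p of 0.0586 for Lif, while Lifr had too few reads to be tested. The other 6 genes had 19 to 79 H3K4me3 reads per library.

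H3K27me3 was sparse at these genes, and 3 of the 8 promoters (Lif, Lifr, Jak1) had enough reads to be tested. The remaining 5 had 1 to 10 reads per library. From MEFs to iPSCs 1 promoter (Lifr) was called lower, where 4.1% of 10185 tested promoters were, and 0 higher, where 7.28% were. Lif had 15 and 23 H3K27me3 reads in MEFs, 24 and 15 reads in pre-iPSCs and 22 and 10 reads in iPSCs, which overlapped throughout and lay above the median of all promoters (6 to 9 reads) in every library. At the downstream Lif start there were 8 and 11 reads in MEFs, 6 and 6 reads in pre-iPSCs and 11 and 12 reads in iPSCs. There the pre-iPSC libraries lay below their medians of all promoters. Jak1 had 2 and 9 reads in MEFs, 6 and 8 reads in pre-iPSCs and 13 and 13 reads in iPSCs, with both iPSC libraries above the others. It was tested only because of its iPSC counts, the highest, so their height is not support for a rise. Its log2 change from MEFs to iPSCs of 1.21 did not pass (adjusted p = 0.127, edgeR quasi-likelihood test). Jak1 RNA fell over the same comparison, and a link between mark and RNA was not tested. From MEFs to pre-iPSCs edgeR called 0 of the 3, where 5.03% of all promoters were called higher and 3.26% lower, and DESeq2 called 0 of the 3 and 45 in all. None (0) had an unadjusted p below 0.05, against 21.5% of all promoters. Between pre-iPSCs and iPSCs edgeR called 0 of the 3, where 0.668% of all promoters were called higher and 0.137% lower, DESeq2 called 0 in all, and 0 had an unadjusted p below 0.05, against 11.6% of all promoters. With 3 promoters tested, these counts of 0 do not set the genes apart.

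**Figure D4:**
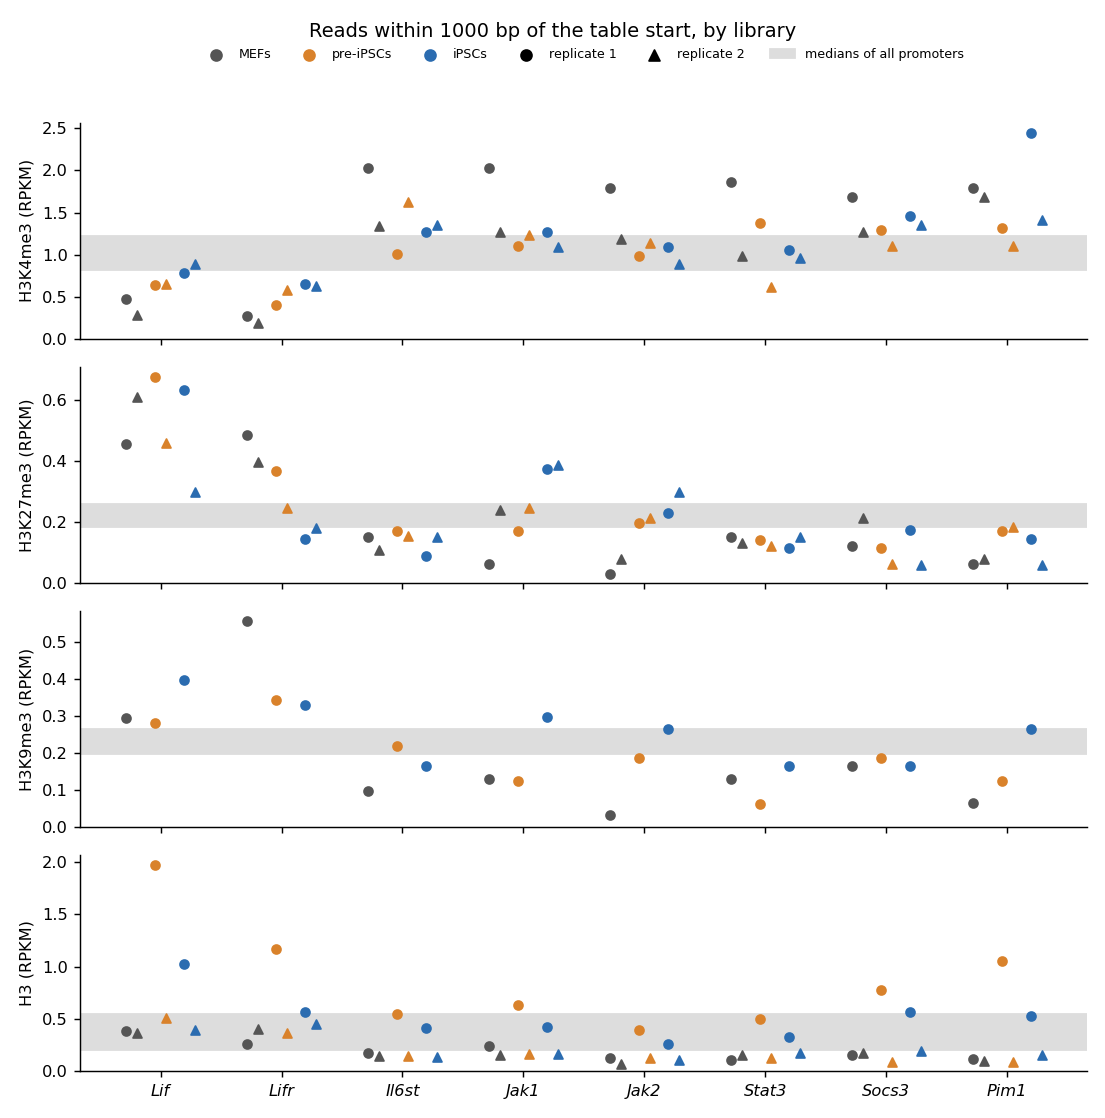
Reads of the marks and of H3 within 1000 bp of the start of the tables, in RPKM (reads scaled to window length and to the uniquely mapped reads of the library, vertical axes), for each of the 8 genes and each library, with 1 panel per mark and a grey band for the medians of all promoters. Lif and Lifr lie below the band or in its lowest part for H3K4me3 (0.191 to 0.888 RPKM), and the H3 values of Lif in pre-iPSC replicate 1 (1.97 RPKM) and iPSC replicate 1 (1.02 RPKM) are apart from the other 4 (0.365 to 0.507 RPKM).

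For histone H3, edgeR and DESeq2 called 0 of the 8 promoters and 0 of all 19578 tested (0%) in each comparison. None of the 8 had an unadjusted p below 0.05 for pre-iPSCs against MEFs, where 350 promoters (1.79%) did, or in the other comparisons, where 108 (0.552%, iPSCs against pre-iPSCs) and 245 (1.25%, iPSCs against MEFs) did. Lif had 68 and 81 H3 reads in MEFs, 512 and 92 reads in pre-iPSCs and 256 and 73 reads in iPSCs. Pim1 had 21 and 22 reads in MEFs, 272 and 15 reads in pre-iPSCs and 132 and 29 reads in iPSCs. In both genes the high values were those of the 2 libraries that stand apart over all promoters. Without pre-iPSC replicate 2, the log2 change from MEFs to pre-iPSCs was 1.03 for Lif and 1.91 for Pim1. That fit keeps only the pre-iPSC library that stands apart. From 150 bp before to 50 bp after the start, Stat3 and Jak2 had at most 1 H3 read in any library, Jak1 and Il6st at most 3 and Socs3 at most 6. Pim1 had 42 reads in pre-iPSC replicate 1 and 22 in iPSC replicate 1, the libraries that stand apart, and at most 2 in the other 4. Lifr had 84 and 34 reads in the same 2 libraries and 0 to 11 in the other 4. At Lif the stretch held 6 and 11 reads in MEFs, 81 and 7 reads in pre-iPSCs and 40 and 2 reads in iPSCs.

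H3K9me3 at the 8 genes ranged from low to above most promoters. None reached 1 RPKM in the single library of any cell type, but that level was passed by only 0.154% of all promoters in the MEF library, 0.109% in the pre-iPSC library and 0.243% in the iPSC library, so the count does not set the 8 genes apart. The highest value was that of Lifr in MEFs, with 17 reads or 0.558 RPKM (exact Poisson 95% interval 0.325 to 0.893, counting error only), above 92.3% of promoters. In pre-iPSCs Lifr had 11 reads (0.343 RPKM, interval 0.171 to 0.614) and in iPSCs 10 (0.331 RPKM, interval 0.159 to 0.608). These values are from the start of the tables. At the upstream start with more H3K4me3, Lifr had 5 reads in MEFs, 9 reads in pre-iPSCs and 8 reads in iPSCs. Those lay above 32.7%, 58.6% and 44.1% of promoters, so MEFs were not highest there. Lif had 9 reads in MEFs, 9 reads in pre-iPSCs and 12 reads in iPSCs, where it lay above 73.8% of promoters, and the other 6 genes lay above 3.14% to 53.2% of promoters. The intervals of Lifr overlap, and with 1 library per cell type the difference has no replicate check.

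The rest of the pathway was described by 65 genes in 7 lists, of which 61 could be tested. Calls higher and lower numbered 10 and 6 for pre-iPSCs against MEFs, where 7.39% and 9% of all tested genes were called. They numbered 6 and 5 for iPSCs against pre-iPSCs, against 3.91% and 4.71% of all tested genes, and 18 and 13 for iPSCs against MEFs, against 10.3% and 15.5%. The same shares are the background for the counts of each list given next. Their median log2 changes were 0.15, -0.14 and 0.04, where those of all tested genes were -0.04, -0.09 and -0.14. The counts moved with single libraries. The 16 calls of pre-iPSCs against MEFs became 8 without pre-iPSC replicate 1 (Fos, Il11, Jak3, Klf4, Myc, Ptpn6 and Sall4 among those kept) and 10 without pre-iPSC replicate 2. The 11 calls of iPSCs against pre-iPSCs became 1 (Nanog) without either iPSC library, 7 without pre-iPSC replicate 1 and 20 without either MEF library. The 31 calls of iPSCs against MEFs became 7 without iPSC replicate 1 (Gab1, Nanog, Osmr, Pim2, Sall4 and Tcfcp2l1 among those kept) and 10 without iPSC replicate 2.

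Among 7 tested ligands of the interleukin-6 family other than Lif, 2 were called lower from MEFs to pre-iPSCs and 4 from MEFs to iPSCs, where 1 was called higher. Il11, another gp130 cytokine, was listed at 5.13 and 9.12 FPKM in MEFs and at 0.165 to 0.562 FPKM in the other 4 libraries. It fell by 2.42 on the log2 scale to pre-iPSCs (adjusted p = 0.00485, limma) and fell by 2.54 to iPSCs (adjusted p = 0.00302). MEF libraries were highest for Il11, as they were for the fibroblast markers, whose part in this was not tested.

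Of the 4 other receptor chains tested, 0 were called from MEFs to pre-iPSCs and 1 in each direction in the other comparisons. Osmr, the oncostatin M chain that pairs with gp130, was listed at 25.3 and 29.7 FPKM in MEFs, 23.3 and 27.5 FPKM in pre-iPSCs and 2.52 and 3.47 FPKM in iPSCs. Cntfr, the chain that binds ciliary neurotrophic factor, was listed at 7.98 and 1.38 FPKM in MEFs, 5.50 and 4.69 FPKM in pre-iPSCs and 33.2 and 19.6 FPKM in iPSCs. From pre-iPSCs to iPSCs Osmr fell by 2.73 on the log2 scale (adjusted p = 0.0043, limma) and Cntfr rose by 2.13 (adjusted p = 0.0366). The Lifr level, at 3.39 and 4.49 FPKM in iPSCs, overlapped that of Osmr there and was below it in MEFs and pre-iPSCs.

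Of the 2 other Janus kinases, 1, Jak3, rose in both lines relative to MEFs, and 0 were called between pre-iPSCs and iPSCs. The tables list it at 0.965 and 1.33 FPKM in MEFs, 11.4 and 15.9 FPKM in pre-iPSCs and 9.11 and 7.43 FPKM in iPSCs, with a log2 change of 2.76 (adjusted p = 0.00432, limma) and 2.11 (adjusted p = 0.00811) relative to MEFs. Jak3 is known from the common gamma chain of interleukin receptors. Among 6 other STAT genes tested, 0 were called in either comparison with pre-iPSCs, and from MEFs to iPSCs Stat4 rose by 1.87 (adjusted p = 0.00937) and Stat6 fell by 1.52 (adjusted p = 0.0257).

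Among 13 inhibitors other than Socs3, 1 rose and 1 fell from MEFs to pre-iPSCs, 1 fell from pre-iPSCs to iPSCs, and 3 rose and 2 fell from MEFs to iPSCs. Ptpn6, the tyrosine phosphatase SHP-1, was listed at 0.932 and 0.432 FPKM in MEFs, 8.39 and 9.65 FPKM in pre-iPSCs and 8.41 and 9.57 FPKM in iPSCs, a log2 change of 2.59 (adjusted p = 0.00539, limma) and 2.58 (adjusted p = 0.00387). Socs5 went the other way to Socs3, from 22.4 and 14.7 FPKM in MEFs to 6.12 and 3.79 FPKM in pre-iPSCs and 1.64 and 2.41 FPKM in iPSCs. Its log2 change was -1.71 in pre-iPSCs (adjusted p = 0.0295) and -2.67 in iPSCs (adjusted p = 0.00446). Cish, a further member of the SOCS family, was listed at 1.73 and 1.46 FPKM in iPSCs against 10.2 and 14.4 FPKM in pre-iPSCs (log2 change -2.34, adjusted p = 0.0224).

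Of 12 tested genes of the MAPK and PI3K arms that gp130 also feeds, 0 rose and 2 fell from MEFs to pre-iPSCs, 1 rose and 1 fell from pre-iPSCs to iPSCs, and 1 rose and 3 fell from MEFs to iPSCs. Gab1, an adaptor bound by the phosphatase SHP2, was listed at 3.47 and 2.65 FPKM in MEFs, 5.71 and 3.38 FPKM in pre-iPSCs and 58.9 and 29.1 FPKM in iPSCs, and rose by 2.97 on the log2 scale from pre-iPSCs (adjusted p = 0.00454, limma). Akt1, a kinase activated through PI3K, was listed at 167 and 200 FPKM in MEFs, 138 and 83.9 FPKM in pre-iPSCs and 26.7 and 21.6 FPKM in iPSCs, and fell by 2.12 over the same step (adjusted p = 0.0189).

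The 17 tested targets other than Pim1 held 9 of the 16, 6 of the 11 and 12 of the 31 calls, with 8 higher and 1 lower from MEFs to pre-iPSCs, 4 and 2 from pre-iPSCs to iPSCs, and 10 and 2 from MEFs to iPSCs. Of all tested genes 7.39%, 3.91% and 10.3% were called higher in these comparisons, and 9%, 4.71% and 15.5% lower, and the lists were chosen with results of these data known. Klf4, which STAT3 is known to activate in mouse pluripotent cells, was listed at 25.1 and 37.6 FPKM in MEFs, 674 and 782 FPKM in pre-iPSCs and 99.6 and 105 FPKM in iPSCs. Myc was listed at 57.8 and 36.3 FPKM, 337 and 816 FPKM, and 9.85 and 7.34 FPKM. Both are factors of the retroviruses, and FPKM do not tell viral from endogenous transcripts. Among targets that the viruses did not carry, Tcfcp2l1 was listed at 0.0206 and 0.0239 FPKM in MEFs, 1.35 and 0.939 FPKM in pre-iPSCs and 3.86 and 5.53 FPKM in iPSCs, with a log2 change from MEFs of 2.46 in iPSCs (adjusted p = 0.00309, limma). Pim2, a paralog of Pim1, was listed at 1.97 and 2.35 FPKM in MEFs, 23.6 and 14.7 FPKM in pre-iPSCs and 17.6 and 32.7 FPKM in iPSCs, so that it had risen in pre-iPSCs (log2 change 2.64), where Pim1 had not passed the test.

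**Figure D5:**
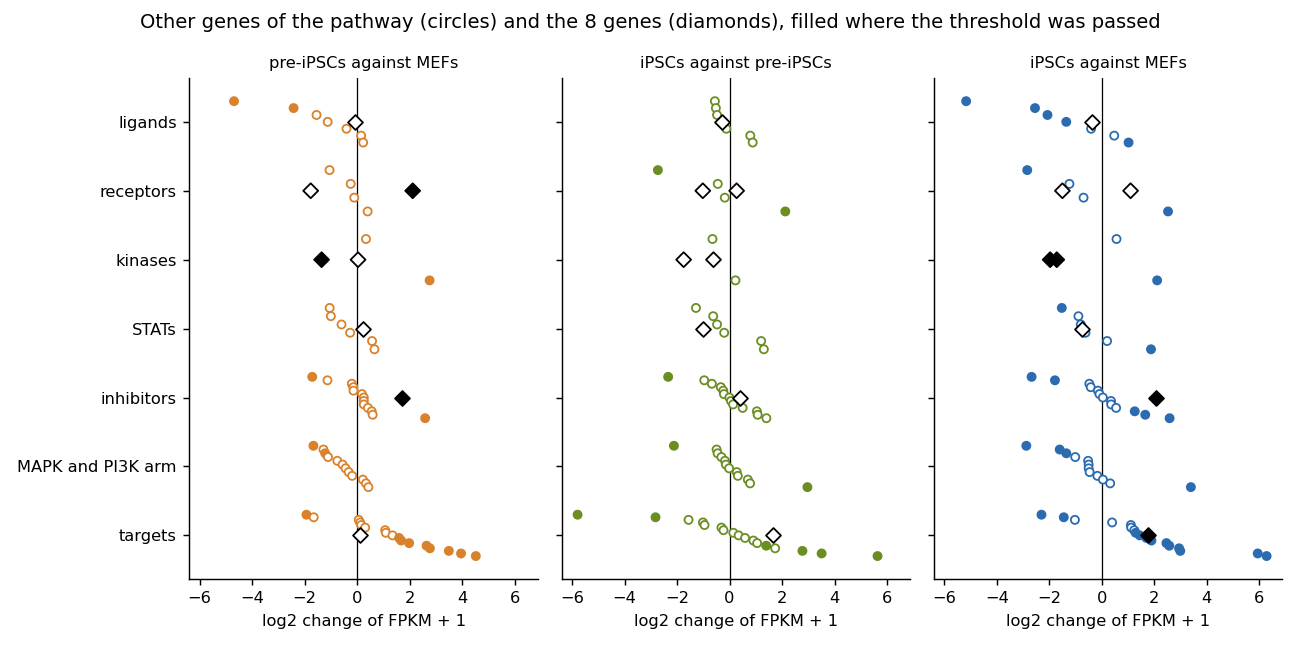
Log2 change of FPKM + 1 (horizontal axes) of the other pathway genes (circles) and the 8 genes (diamonds) by list (vertical axis), with 1 panel per comparison and filled symbols where the limma threshold was passed. Targets, 17 of the 61 tested genes, hold 8 of the 10 genes called higher in pre-iPSCs against MEFs and 10 of the 18 in iPSCs against MEFs. Of all tested genes 7.39% and 10.3% were called higher. The 8 include Klf4 and Myc, which the viruses carried and which are among the targets in every panel. Nanog, also a target here, is among the pluripotency markers. The lists were chosen with results of these data known.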

How the data were processed

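RNA-seq (6 libraries) and MNase ChIP-seq (21 libraries) of MEFs, pre-iPSCs and iPSCs were read from the deposited tables. The authors computed the FPKM with TopHat 2.0.4 and Cuffdiff 2.0.2 on mm9 genes. The deposited count of reads per called nucleosome came from Bowtie alignments to mm9 and GeneTrack calls, and reads outside calls were not used here. The genes and gene lists were chosen with earlier results of these data known.

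Expression was compared by limma 3.58.1 (trend, with the table, which is also the replicate number, as a block) on log2(FPKM + 1) over genes averaging 0.5 FPKM or more, and calls needed a log2 change of 1 or more in either direction with an adjusted p under 0.05. Fold changes on that scale understate those of low genes. Counts within 1000 bp of the start went through filterByExpr, TMM and the quasi-likelihood test of edgeR 4.0.16 (calls at an adjusted p under 0.05), and DESeq2 1.42.0 was an alternative. Adjusted p-values are Benjamini-Hochberg values over all tested genes or promoters. RPKM were computed from the deposited counts and the uniquely mapped reads that the study lists. H3K9me3, with 1 library per cell type, was not tested. Up to 4 pathway genes per list and comparison were eligible to be named, by size of change among those called, and 1 result that this rule selects is not reported here. CG dinucleotides and STAT motifs were counted on the mm9 sequence (NCBIM37), and other starts came from its GENCODE annotation. Samples were grouped by the titles of the labels, and a title ending in rep is replicate 2.

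In data simulated on 11012 genes after pre-iPSCs against MEFs, limma recovered 12 of 100 changes of 4-fold and 74 of 100 of 16-fold. No other genes were changed there, while 2032 of 12401 were called in the real comparison. The adjustment of p was therefore stricter in the simulation, and these shares are not the recovery of the real test. In counts simulated after the same comparison, 51 of 100 promoters changed 2-fold were recovered for H3K4me3, 45 for H3K27me3 and 2 for H3. Of 100 promoters changed 8-fold, 100, 100 and 81 were recovered. The changed promoters were drawn over all read depths with 1 shared spread, and no others were changed. These shares too are not the recovery of the real tests. Alternatives covered the pseudocount, the filter, normalization, the replicate block, the window, calls of at least 2 reads, a treat test against 1.5-fold, each library left out and, chosen after seeing the data, the other start of Lif and Lifr.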

Additional observations from a re-analysis of the deposited data

How the results depend on the processing

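The 4 expression calls from MEFs to iPSCs among the 8 genes became 1 without a filter on low values and 2 in a treat test against 1.5-fold, and the 3 from MEFs to pre-iPSCs became 0 and 1. The 0 from pre-iPSCs to iPSCs became 2 with quantile normalization (1218 of all genes against 1069) and 1 with no replicate block (1124). Leaving out each library gave 0 to 4, 0 to 2 and 0 to 4 called genes for pre-iPSCs against MEFs, iPSCs against pre-iPSCs and iPSCs against MEFs. For the 61 pathway genes the 16, 11 and 31 calls became 0, 2 and 4 without the filter and 9, 7 and 17 in the treat test, and 8 to 19, 1 to 20 and 7 to 28 with a library left out. Over all genes, 2032, 1069 and 3206 calls became 0, 170 and 549 without the filter, 1058, 486 and 1618 in the treat test, and 1025 to 2869, 36 to 2133 and 655 to 3691 with a library left out. The cause was not tested.

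From MEFs to iPSCs the 2 H3K4me3 calls became 0 with DESeq2, which called 119 promoters in all where edgeR called 2460, 0 in the 500 bp window (912 in all) and 0 at the other start of Lif and Lifr, where the log2 change of Lif turned to -0.13. The 1 H3K27me3 call became 0 with DESeq2 (19 in all against 1159), in the 500 bp window (145), with calls of at least 2 reads (655) and at the other start. Leaving out each library gave 2 to 2 calls for H3K4me3 (601 to 2333 in all), where Lif (1.32, adjusted p = 0.065) gave way to Pim1 (0.78, 0.0493) without iPSC replicate 2. It gave 0 to 1 for H3K27me3 (465 to 1181 in all) and, for H3 in pre-iPSCs against MEFs, 0 to 2 (0 to 4953). The count of 0 genes above 1 RPKM of H3K9me3 was the same under each alternative run. A cell type reduced to a single library was assumed to have the spread of the rest. Leaving out an iPSC library left the log2 changes from MEFs to pre-iPSCs as they were (Jak1 -1.36, Socs3 1.69). Only the estimate of the spread differed there, so a call lost in such a fit does not mean that it rested on that library.

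The expression fit blocks on replicate number, because its 2 tables, compared within, are replicate 1 and replicate 2. The promoter fits do not. The numbers are not shown to pair the samples, since the labels tie no clone to a number and not every pair of cell types correlated above 0.1. The deviations of same-numbered libraries correlated at 0.346, -0.205 and 0.112 for RNA, at -0.045 to 0.122 for H3K4me3 and H3K27me3, and for H3 at -0.08, -0.028 and, between pre-iPSCs and iPSCs, whose replicate 1 libraries both stood apart, 0.804. With the replicate block added, H3K4me3 kept 2 calls, at 1.47 for Lif and 1.79 for Lifr, and H3K27me3 kept 1, at -1.51 for Lifr. H3 had 0 calls among the 8 genes with the block and without it. Without the block, expression gave 4, 1 and 4 calls where the fit with it gave 3, 0 and 4, adding Il6st (adjusted p = 0.0428, pre-iPSCs against MEFs) and Jak2 (0.0454, iPSCs against pre-iPSCs).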

Other observations

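Across the 6 RNA-seq libraries, the genes whose log2(FPKM + 1) lay nearest to that of each member after centring were found among all tested genes, as a description with no test. Nearest to Lif was Dusp1, a phosphatase of MAP kinases, at 66.0 and 36.2 FPKM in MEFs, 59.0 and 37.1 FPKM in pre-iPSCs and 41.2 and 40.7 FPKM in iPSCs, so that replicate 1 was above replicate 2 in MEFs and pre-iPSCs for both genes. Nearest to Lifr was Fut9, a fucosyltransferase, at 0 and 0.00614 FPKM in MEFs, 3.08 and 3.23 FPKM in pre-iPSCs and 0.751 and 1.69 FPKM in iPSCs. The nearest to Il6st was Fap, to Jak1 Actr3, to Jak2 Ripk1, to Stat3 Zfp282, to Socs3 Sap30 and to Pim1 5730507C01Rik. The distances, each the root of the summed squared differences of the log2 values, ran from 0.145 for Actr3 to 0.557 for 5730507C01Rik. All 6 points share the 3 cell types, and likeness over so few libraries says nothing of shared function.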
